A study of Mus musculus with 57 samples.

Results

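The 42 genes described here code for proteins that detect DNA damage, signal its presence or repair it, and they were looked up by gene symbol among the 25416 genes of the acute count table and the 54658 genes of the chronic count table. All 42 were found in both tables, and all 42 passed the filter on low counts, among 14240 tested genes (acute) and 14960 (chronic). They were ordered by pathway, with 5 genes of damage signalling, 7 of homologous recombination, 6 of non-homologous end joining, 8 of base excision and single-strand break repair, 8 of nucleotide excision repair, 2 of mismatch repair, 2 of crosslink repair, 1 of direct reversal and 3 of translesion synthesis and nucleotide supply.

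Doxorubicin (Doxo) is an anthracycline that inserts between DNA bases and traps topoisomerase II on cut DNA, which leaves double-strand breaks, and its redox cycling also oxidizes DNA bases. Cells sense breaks through the kinases ATM and ATR and their effector kinases, and rejoin the ends by homologous recombination, which copies an intact sister strand in dividing cells, or by non-homologous end joining, which needs no copy and serves in resting cells such as adult cardiomyocytes. Damaged single bases are cut out by base excision repair, and bulky lesions by nucleotide excision repair. Lesion sensors of the latter are known to be induced by p53 after damage in human cells.

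Hearts came from male C57BL/6J mice in 2 studies, and each library was made from the heart of a separate mouse. In the acute study, mice that were 9 weeks old at purchase received saline (Ctrl, n = 14), a single intraperitoneal injection of 20 mg/kg Doxo (n = 13), or the same injection with nicotinamide mononucleotide (NMN, a precursor of NAD+), injected at 180 mg/kg per day from 5 days before Doxo (Doxo-NMN, n = 13), and hearts were taken on day 5 after Doxo. In the chronic study, mice aged 14 to 16 weeks at injection received phosphate-buffered saline (Ctrl, n = 5), 5 injections of 4 mg/kg Doxo (n = 6), or these injections with 500 mg/kg NMN per day in the drinking water from 5 days before Doxo (n = 6), and hearts were taken on day 60. Hearts could come only from mice alive on those days, and neither study had a group that received NMN without Doxo.

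Mice of the 2 studies came from different suppliers and their libraries from different sequencing sites. Acute libraries held 32409622 to 52102850 counts and chronic libraries 17769886 to 23862287. Values below are CPM (counts scaled to library size, normalized with TMM), and a gene passed a test at an adjusted p under 0.05 (edgeR quasi-likelihood F-test, Benjamini-Hochberg over all genes tested). In bulk heart RNA, fewer cells of a type and less RNA per cell cannot be told apart. A few libraries stood apart from their groups. The library labelled Doxo replicate 6 of the acute study had levels like those of Ctrl hearts in many members, and the library labelled Doxo-NMN replicate 10 had levels like those of Doxo hearts. In the chronic study, Ctrl replicate 1 and Doxo replicate 2 stood apart. Counts of members passing the test are given with and without these hearts.

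Levels of the members in untreated hearts spanned a wide range when set per exon length. In acute Ctrl hearts, 7 members were above 5 RPKM (CPM divided by the exon length in kilobases), 22 lay between 1 and 5, and 13 were below 1. Ddb1, a subunit of a ubiquitin ligase that also serves outside repair, was highest at 36.6 ± 0.876 RPKM (SD, n = 14). It was followed by Nbn of the break-sensing MRN complex at 10.6 ± 0.541 RPKM and the end-binding subunit Xrcc5 at 8.73 ± 0.573 RPKM. The lowest were recombination and crosslink genes that are used mainly in dividing cells. Brca1 lay at 0.0610 ± 0.0226 RPKM, Rad54l at 0.0605 ± 0.0163 RPKM and Fancd2 at 0.0433 ± 0.0224 RPKM, and these 3 neighbours did not differ beyond their spread. Precision is correspondingly lower for these genes, since single acute hearts held as few as 4 counts of Fancd2 and 9 of Rad54l.

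The first comparison asks how Doxo changed the repair genes within 5 days. In acute Doxo vs. Ctrl hearts, 31 of the 42 members passed the test (73.8%, against 68.1% of all genes tested), 20 of them higher (34.8% of all genes) and 11 lower (33.3%). Passing both the test and a fold change of at least 1.5 were 6 members (14.3%, against 30.1% of all genes tested). These were Xpa, Xpc, Rad54l and Fancd2, which rose (14.7% of all genes did), and Chek2 and Ung, which fell (15.4%). Most members thus moved by less than 1.5-fold, and the median log2 fold change of the 42 was 0.19, while that of all genes was about 0. Without the library labelled Doxo replicate 6, 31 members passed, again 20 higher and 11 lower, and 8 reached 1.5-fold, with Prkdc and Lig4 added. No member had Doxo and Ctrl hearts in ranges that did not overlap, as 0.906% of all genes did. In 12 of 13 Doxo hearts, however, Xpa and Prkdc lay above the Ctrl range and Chek2 below it. The exception in each was the library labelled Doxo replicate 6. Ranges without that library were not counted, for members or for all genes.

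The second comparison asks what NMN changed in Doxo-treated mice. In Doxo-NMN vs. Doxo hearts, 18 members passed (42.9%, against 53% of all genes tested), 10 higher (25.7% of all genes) and 8 lower (27.4%). At least 1.5-fold were 4 members (9.52%, against 17.1%), namely Chek2 and Ung, which were higher with NMN (8.17% of all genes), and Xpa and Rad54l, which were lower (8.88%). In Doxo-NMN vs. Ctrl hearts, 14 members passed (33.3%, against 26% of all genes tested), 13 higher (15% of all genes) and 1, Chek2, lower (11.1%). Chek2 was also the 1 member beyond 1.5-fold (2.38%, against 7.11%, or 3.79% in that direction). These comparisons share hearts with the first, the Doxo hearts in one case and the Ctrl hearts in the other, so opposite signs in Doxo vs. Ctrl and Doxo-NMN vs. Doxo are not independent of each other. Without the library labelled Doxo-NMN replicate 10, the 3 counts were 31, 18 and 12, and without the library labelled Doxo replicate 6 they were 31, 19 and 15.

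**Figure D1:**
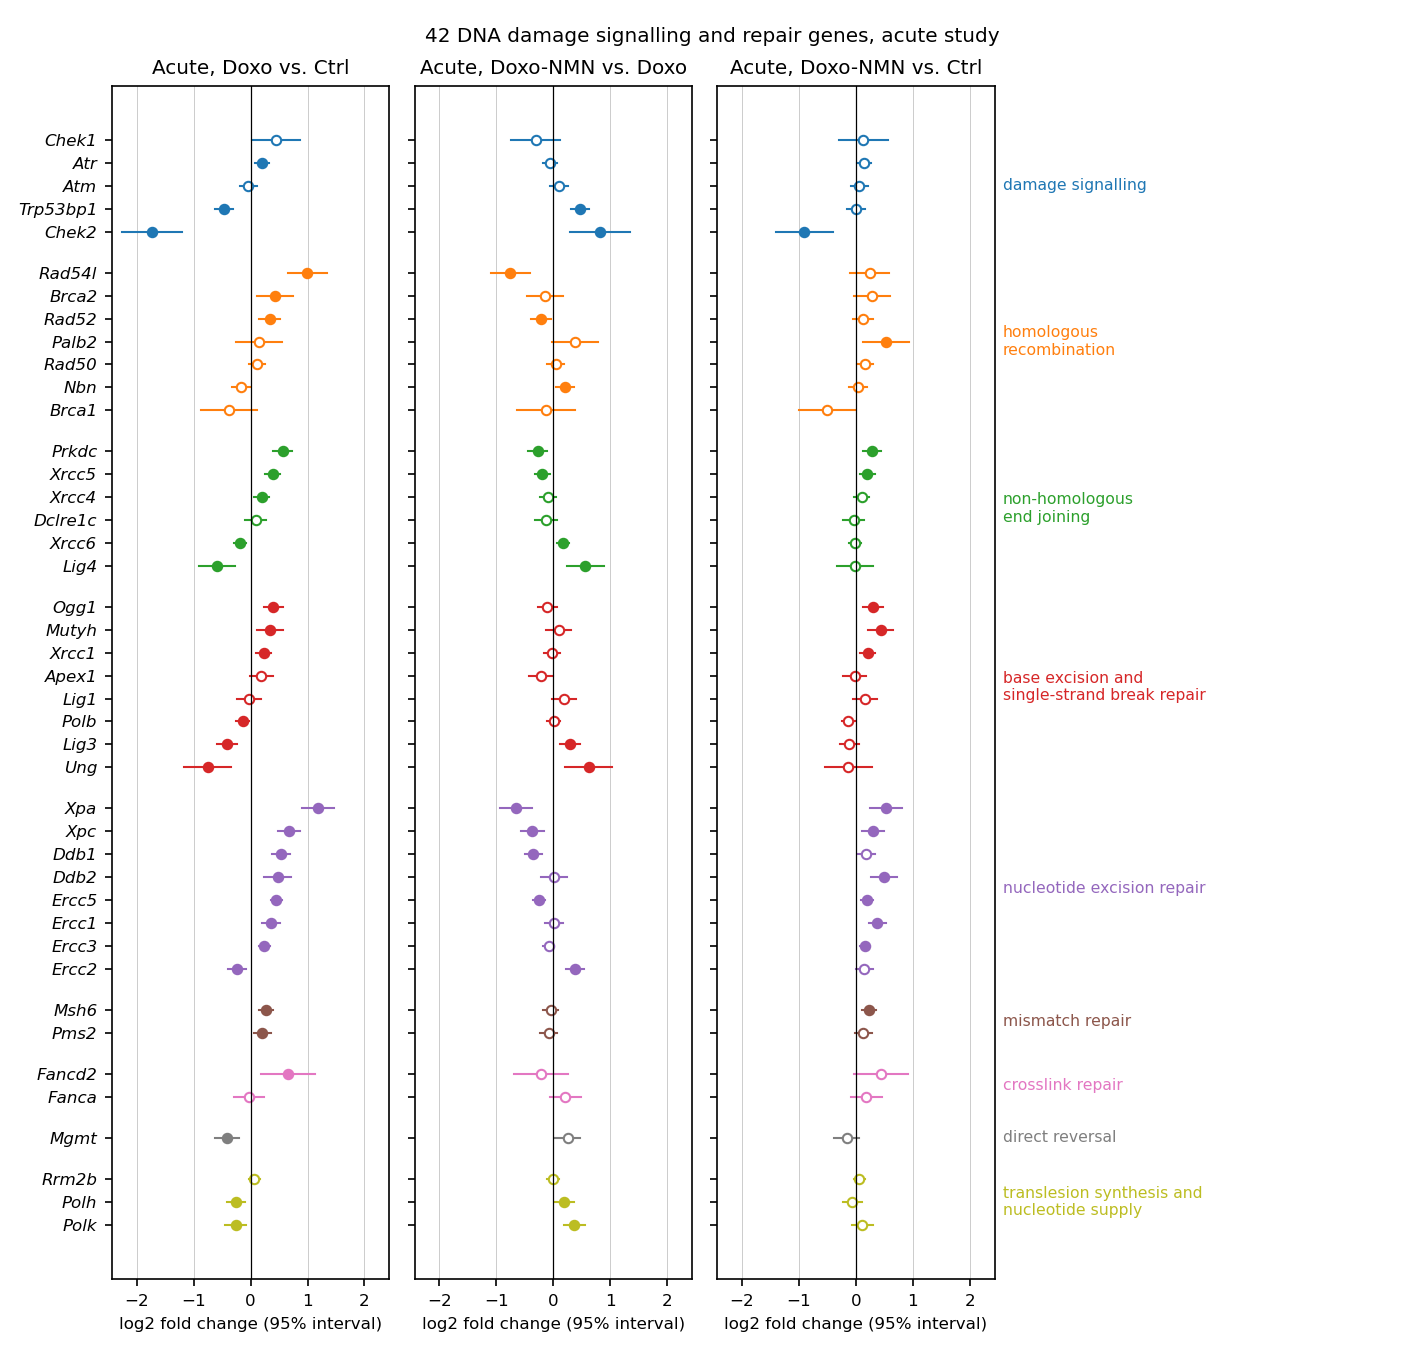
Log2 fold changes of the 42 members in the 3 acute comparisons, grouped by pathway (x axis, log2 fold change, bars are 95% intervals, filled points passed the test). Nucleotide excision repair lies mostly to the right of 0 in Doxo vs. Ctrl, with Xpa at 1.18, and Chek2 lies farthest to the left at −1.72.

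By pathway, counts are read against all genes tested, of which 68.1% passed in Doxo vs. Ctrl, 34.8% higher and 33.3% lower. In that comparison, 7 of 8 nucleotide excision repair genes rose and 1 fell, 3 of 7 homologous recombination genes rose and 0 fell, and 2 of 2 mismatch repair genes rose. Of 6 end joining genes, 3 rose and 2 fell, and of 8 base excision genes, 3 rose and 3 fell. In damage signalling 1 of 5 rose and 2 fell, and in translesion synthesis and nucleotide supply 2 of 3 fell and 0 rose. The share passing was 60% in signalling, 75% in base excision repair and 66.7% in translesion synthesis and nucleotide supply, near that of all genes. It was 42.9% in homologous recombination and 100% in nucleotide excision repair. By the counts above, the shares in end joining and mismatch repair also exceeded that of all genes. Fancd2 of crosslink repair rose while Fanca did not pass, and Mgmt of direct reversal fell.

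Nucleotide excision repair held the members with the clearest rise. Xpa, which binds the opened lesion and positions the repair complex, measured 3.96 CPM in the lowest, 5.30 in the median and 6.18 in the highest Ctrl heart, 4.01, 12.4 and 16.3 CPM in Doxo hearts, and 5.67, 6.80 and 13.9 CPM in Doxo-NMN hearts. Doxo hearts lay above every Ctrl heart in 12 of 13 cases, the exception being the library labelled Doxo replicate 6, and 10 of 13 Doxo-NMN hearts also lay above the Ctrl range, mostly just above it. Xpa rose by 1.18 on the log2 scale with Doxo (SE 0.141, adjusted p = 5.49e-09). With NMN it was −0.65 lower than with Doxo alone (SE 0.143, adjusted p = 0.000264) and 0.53 higher than in Ctrl (SE 0.141, adjusted p = 0.00487). Without the library labelled Doxo replicate 6 these were 1.26, −0.73 and 0.53. Xpa (ENSMUSG00000028329) lies on the minus strand of chromosome 4 from 46155347 to 46196311 in GRCm38.

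Lesion recognition upstream of Xpa rose as well. Xpc, the sensor of distorted DNA, measured 13.6, 16.2 and 18.8 CPM (lowest, median and highest) in Ctrl hearts, 16.3, 27.2 and 32.5 in Doxo hearts and 16.1, 18.8 and 38.2 in Doxo-NMN hearts, and 11 of 13 Doxo hearts but 7 of 13 Doxo-NMN hearts lay above the Ctrl range. Xpc rose by 0.68 (SE 0.101, adjusted p = 3.14e-07), was −0.37 lower with NMN (adjusted p = 0.00265) and still exceeded Ctrl by 0.31 (adjusted p = 0.0216). The Xpc level of 38.2 CPM belonged to Doxo-NMN replicate 10, and without that heart the difference from Ctrl was 0.19 and did not pass (adjusted p = 0.0666). Ddb1, which forms the ultraviolet-damage sensor together with Ddb2, measured 226, 237 and 242 CPM in Ctrl, 234, 334 and 469 in Doxo and 227, 257 and 387 in Doxo-NMN hearts. Its Ctrl hearts were the most alike of any member, and 12 of 13 Doxo hearts exceeded them all. Ddb1 rose by 0.53 on the log2 scale (SE 0.0779, adjusted p = 2.16e-07) and was lower by −0.35 with NMN (adjusted p = 0.000427), after which the difference from Ctrl, 0.19, did not pass (adjusted p = 0.07), though it did without the library labelled Doxo replicate 6 (adjusted p = 0.0456).

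For a pair of nucleotide excision repair genes the rise was as large with NMN as without it. Ddb2, the lesion-binding partner of Ddb1, measured 1.84, 3.06 and 4.06 CPM in Ctrl, 2.72, 4.39 and 5.50 in Doxo and 2.64, 4.15 and 5.71 in Doxo-NMN hearts. Against Ctrl, Ddb2 was higher by 0.47 with Doxo (adjusted p = 0.000553) and by 0.49 with both agents (adjusted p = 0.00205), and the difference between these, 0.02 (SE 0.119), did not pass (adjusted p = 0.918). Ercc1, the partner of the nuclease that cuts on the 5′ side of the lesion, measured 15.6, 17.1 and 19.7 CPM in Ctrl, 18.5, 22.6 and 28.1 in Doxo and 15.1, 22.6 and 29.5 in Doxo-NMN hearts. It rose by 0.36 with Doxo (adjusted p = 9.98e-05) and by 0.37 with Doxo and NMN (adjusted p = 0.000458), and the difference was 0.01 (SE 0.0786, adjusted p = 0.887). With these standard errors, small effects of NMN on either gene were not resolved. Of the exon bases of Ddb2, 23.8% overlap those of Acp2 on the other strand, and the strand setting of the counting is not given in the sources used here.

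A nuclease and a pair of helicases complete the list. Ercc5, which cuts on the 3′ side, measured 18.6, 21.6 and 24.3 CPM in Ctrl, 22.5, 28.8 and 34.1 in Doxo and 20.9, 25.1 and 28.1 in Doxo-NMN hearts. It rose by 0.45 (SE 0.0511, adjusted p = 1.88e-09), the smallest adjusted p of any member there, was lower by −0.25 with NMN (adjusted p = 0.000125) and stayed 0.20 above Ctrl (adjusted p = 0.0041). Ercc2 and Ercc3 are the helicases that open DNA within TFIIH, which also acts in transcription, and they moved in opposite directions. Ercc3 rose by 0.24 (adjusted p = 3.94e-05), whereas Ercc2 fell by −0.23 (adjusted p = 0.00804) and was higher by 0.39 with NMN (adjusted p = 0.000134). Exons of Ercc2 overlap those of Gm26852 over 24.6% and of Klc3 over 17.8% of their bases, both on the other strand.

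Damage signalling held the largest change of any member. Chek2, the effector kinase that ATM switches on after double-strand breaks, measured 2.06, 2.61 and 3.80 CPM in Ctrl, 0.222, 0.520 and 3.34 in Doxo and 0.887, 1.21 and 2.42 in Doxo-NMN hearts. Every Doxo heart except the library labelled Doxo replicate 6, at 3.34 CPM, lay below the Ctrl range, and so did 10 of 13 Doxo-NMN hearts, which mostly lay between the other groups. Chek2 fell by −1.72 on the log2 scale with Doxo (SE 0.269, adjusted p = 7.22e-07), a 3.3-fold change. With NMN it was 0.82 higher than with Doxo alone (SE 0.271, adjusted p = 0.0105) and −0.90 lower than in Ctrl (SE 0.259, adjusted p = 0.00892). Without the library labelled Doxo replicate 6 these values were −2.15, 1.252 and −0.90. Chek2 (ENSMUSG00000029521) lies on the plus strand of chromosome 5 from 110839979 to 110874145 in GRCm38.

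The other signalling genes divided. Trp53bp1, the 53BP1 scaffold that gathers at breaks and directs them to end joining, measured 28.2, 29.8 and 33.6 CPM in Ctrl, 12.9, 22.1 and 28.8 in Doxo and 27.5, 31.1 and 31.8 in Doxo-NMN hearts. Doxo hearts were low and widely spread, 11 of 13 below the Ctrl range, while Doxo-NMN hearts were as narrow as Ctrl hearts. Trp53bp1 fell by −0.46 (SE 0.0796, adjusted p = 4.16e-06) and was 0.47 higher with NMN (SE 0.0809, adjusted p = 1.68e-05), which left 0.01 against Ctrl (adjusted p = 0.963). Its exons overlap those of Tubgcp4 over 15% of their bases. Atr, the kinase that senses single-stranded DNA at stalled forks, rose by 0.21 (adjusted p = 0.00398), and its difference with NMN, −0.06, did not pass (adjusted p = 0.438). Atm, the kinase that senses breaks, had a log2 fold change of −0.04 (adjusted p = 0.681), and Chek1, the effector of ATR, one of 0.44 (SE 0.216, adjusted p = 0.0667), so neither passed.

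In homologous recombination Rad54l stood first. Rad54l, a DNA motor protein of the strand-pairing step, measured 0.264, 0.468 and 0.681 CPM in Ctrl, 0.422, 0.937 and 1.47 in Doxo and 0.301, 0.568 and 0.843 in Doxo-NMN hearts. Doxo hearts exceeded the Ctrl range in 10 of 13 cases and Doxo-NMN hearts in 3 of 13. Rad54l rose by 0.999 on the log2 scale (SE 0.174, adjusted p = 4.71e-06) and was lower by −0.75 with NMN (SE 0.176, adjusted p = 0.000539), and its difference of 0.25 between Doxo-NMN and Ctrl hearts did not pass (adjusted p = 0.313). The gene (ENSMUSG00000028702) lies on the minus strand of chromosome 4 from 116094264 to 116123690 in GRCm38, its exons overlap those of Lrrc41 over 15.4% of their bases, and acute hearts held 9 to 59 counts of it.

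Other recombination genes showed smaller changes. Brca2, a tumour suppressor of recombination, rose by 0.43 with Doxo (SE 0.159, adjusted p = 0.017), and Rad52, which anneals single strands, by 0.33 (adjusted p = 0.00136). With NMN, Rad52 was lower by −0.21 (adjusted p = 0.047), a call lost in 26 of 40 fits that each left out 1 heart, and Nbn was higher by 0.20 (adjusted p = 0.036), a call lost in 9 of them, among these the fit without Doxo-NMN replicate 10 (adjusted p = 0.0572). Palb2, which joins BRCA1 to BRCA2, was 0.53 higher in Doxo-NMN than in Ctrl hearts (adjusted p = 0.0481), and 25 of the 40 fits lost that call. Brca1 differed from Ctrl by −0.39 (SE 0.251, adjusted p = 0.17), and Rad50, the partner of Nbn in the MRN complex, by 0.11 (adjusted p = 0.176), so neither passed.

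Sequences upstream of the 3 members with the largest fold changes show what lies at their starts. Each line gives the 250 bases before the gene start in RefSeq GRCm38.p6, read 5′ to 3′ on the strand of the gene, at chr4:46196312-46196561 (minus) for Xpa, chr4:116123691-116123940 (minus) for Rad54l and chr5:110839733-110839982 (plus) for Chek2. Capitals mark a CCAAT box, a general promoter element, or its reverse complement ATTGG, and in Chek2 also CGGGAAA, the reverse complement of an E2F site.
Xpa: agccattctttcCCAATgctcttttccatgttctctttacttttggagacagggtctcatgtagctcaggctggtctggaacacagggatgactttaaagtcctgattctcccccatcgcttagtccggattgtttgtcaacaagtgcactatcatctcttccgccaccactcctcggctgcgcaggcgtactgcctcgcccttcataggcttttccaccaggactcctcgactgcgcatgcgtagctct
Rad54l: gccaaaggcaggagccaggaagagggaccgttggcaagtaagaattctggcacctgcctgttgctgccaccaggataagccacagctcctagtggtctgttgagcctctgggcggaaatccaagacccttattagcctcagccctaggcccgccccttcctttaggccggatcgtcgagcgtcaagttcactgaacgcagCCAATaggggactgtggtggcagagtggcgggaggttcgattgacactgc
Chek2: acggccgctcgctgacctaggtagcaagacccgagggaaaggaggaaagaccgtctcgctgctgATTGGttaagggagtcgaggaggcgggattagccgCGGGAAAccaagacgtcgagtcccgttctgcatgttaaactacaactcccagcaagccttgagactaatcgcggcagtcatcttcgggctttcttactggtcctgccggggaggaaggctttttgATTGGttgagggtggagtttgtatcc

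Windows from 250 bases before to 50 bases after the start were at hand for 33 of the 42 members and for 27025 genes in all. The letters CCAAT, read on both strands, were in 18 of 33 members (54.5%) and in 41.1% of all genes. The E2F letters TTTGGCG, known from genes of the cell cycle, were also accepted with either G or C at the fourth and the fifth letter. On both strands they were in 8 of 33 members (24.2%) and in 7.65% of all genes, and none of the marked matches overlapped another. The 8 were Brca2, Chek1, Chek2, Lig1, Msh6, Pms2, Trp53bp1 and Xrcc6, of which Brca2, Msh6 and Pms2 rose with Doxo, Chek2, Trp53bp1 and Xrcc6 fell, and Chek1 and Lig1 did not pass. The consensus decamer of p53 was in 2 of 33 members (6.06%), Fanca and Polk, and in 9.55% of all genes. These are matches of letters and were not tested as binding sites.

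In non-homologous end joining, subunits of one complex moved in opposite directions. Prkdc, the catalytic subunit of the DNA-dependent protein kinase, measured 14.2, 16 and 18.2 CPM in Ctrl, 13.2, 22.9 and 28.9 in Doxo and 15.3, 19.1 and 24.2 in Doxo-NMN hearts, with all Doxo hearts above the Ctrl range except the library labelled Doxo replicate 6 at 13.2. Prkdc rose by 0.56 (SE 0.0811, adjusted p = 1.84e-07) and was lower by −0.27 with NMN (adjusted p = 0.00552). Xrcc5 and Xrcc6 form the Ku ring that threads onto broken ends. Xrcc5 rose by 0.39 (SE 0.0683, adjusted p = 4.9e-06) and Xrcc6 fell by −0.18 (SE 0.0533, adjusted p = 0.00272), and with NMN they differed from Doxo by −0.19 (adjusted p = 0.0213) and 0.17 (adjusted p = 0.00671). Lig4, the ligase that seals the ends, measured 7.96, 9.06 and 11.6 CPM in Ctrl, 2.02, 6.27 and 9.94 in Doxo and 5.32, 9.62 and 10.5 in Doxo-NMN hearts. Its Doxo hearts ran from the Ctrl range to far below it, with 8 of 13 below, and Doxo-NMN hearts mostly lay within it.

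Lig4 fell by −0.58 (SE 0.161, adjusted p = 0.0016), just inside the 1.5-fold limit, and was 0.57 higher with NMN (adjusted p = 0.00378). Xrcc4, the scaffold that holds LIG4, rose by 0.19 (adjusted p = 0.0136), and the nuclease Dclre1c (Artemis) did not pass, with 0.09 (adjusted p = 0.417). Differences from Ctrl remained in Doxo-NMN hearts for Prkdc at 0.29 (adjusted p = 0.00758) and Xrcc5 at 0.20 (adjusted p = 0.0255, and 0.051 without Doxo-NMN replicate 10), while Lig4 at −0.02 (adjusted p = 0.946) and Xrcc6 at −0.01 (adjusted p = 0.927) did not pass.

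In base excision and single-strand break repair, glycosylases for oxidized bases rose and the uracil glycosylase fell. Ung, which removes uracil from DNA in the nucleus and in mitochondria, measured 15.4, 22.2 and 32.1 CPM in Ctrl, 3.74, 10.4 and 26.3 in Doxo and 4.97, 19.99 and 31.1 in Doxo-NMN hearts. Doxo hearts were low in most cases, 9 of 13 below the Ctrl range, and of 13 Doxo-NMN hearts 2 were. Ung fell by −0.75 (SE 0.209, adjusted p = 0.00172) and was 0.62 higher with NMN (SE 0.212, adjusted p = 0.0126), leaving −0.13 against Ctrl (adjusted p = 0.678). Ogg1, which removes oxidized guanine, measured 3.57, 4.35 and 4.86 CPM in Ctrl, 4.16, 5.64 and 7.66 in Doxo and 4.27, 5.02 and 6.95 in Doxo-NMN hearts, and 11 of 13 Doxo and 8 of 13 Doxo-NMN hearts exceeded the Ctrl range.

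Ogg1 rose by 0.40 with Doxo (SE 0.0877, adjusted p = 0.000125) and was 0.30 above Ctrl in Doxo-NMN hearts (adjusted p = 0.0101). Mutyh, which removes adenine opposite oxidized guanine, followed with 0.34 (adjusted p = 0.00784) and 0.44 (adjusted p = 0.00415), and Xrcc1, the scaffold of single-strand break repair, with 0.23 (adjusted p = 0.00258) and 0.21 (adjusted p = 0.0181). For none of these 3 did Doxo-NMN vs. Doxo pass, the differences being −0.10 for Ogg1, 0.09 for Mutyh and −0.02 for Xrcc1. Lig3, the partner ligase of XRCC1, fell by −0.41 (SE 0.0887, adjusted p = 0.000105) and was 0.30 higher with NMN (adjusted p = 0.00564), so that partners in 1 complex moved apart. The gap-filling polymerase Polb fell by −0.14 (adjusted p = 0.0292). The abasic site nuclease Apex1 at 0.19 (adjusted p = 0.106) and the replicative ligase Lig1 at −0.02 (adjusted p = 0.858) did not pass. Exons overlap those of a neighbour over 61.7% of their bases in Apex1 (Pip4p1), 25.1% in Lig3 (Rffl) and 10.6% in Ogg1 (Camk1).

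Among the smaller groups, both mismatch repair genes rose. Msh6, which recognizes mismatched bases, measured 9.58, 10.8 and 13.4 CPM in Ctrl, 11.2, 13 and 17 in Doxo and 10.9, 12.8 and 16.2 in Doxo-NMN hearts, overlapping throughout. It rose by 0.27 with Doxo (adjusted p = 0.00029) and was 0.23 above Ctrl with NMN (adjusted p = 0.00813), and Pms2, which nicks the faulty strand, rose by 0.21 with Doxo (adjusted p = 0.0134). Fancd2, the ubiquitin-marked core of crosslink repair, measured 0.0911, 0.324 and 0.658 CPM in Ctrl, 0.314, 0.555 and 0.928 in Doxo and 0.180, 0.452 and 0.864 in Doxo-NMN hearts. These ranges overlapped widely, and Fancd2 rose by 0.66 (SE 0.241, adjusted p = 0.0152) on 4 to 36 counts per heart. Fanca, of the complex that marks FANCD2, had −0.03 and did not pass (adjusted p = 0.879).

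Mgmt, which reverses alkylated guanine directly, fell by −0.42 (SE 0.109, adjusted p = 0.00099), and its difference with NMN, 0.25, did not pass (adjusted p = 0.0523) but did without the library labelled Doxo replicate 6 (0.30, adjusted p = 0.019) or Doxo-NMN replicate 10 (0.28, adjusted p = 0.0323). The translesion polymerases, which copy past lesions, both fell, Polk by −0.26 (adjusted p = 0.0158) and Polh by −0.26 (adjusted p = 0.00542). With NMN, Polk was 0.37 higher (adjusted p = 0.00154) and Polh 0.20 higher (adjusted p = 0.0418), the latter call being lost in 13 of 40 fits that left out 1 heart. Rrm2b, the p53-induced subunit of ribonucleotide reductase that supplies nucleotides in resting cells, had a log2 fold change of 0.07 (adjusted p = 0.227) and did not pass.

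**Figure D2:**
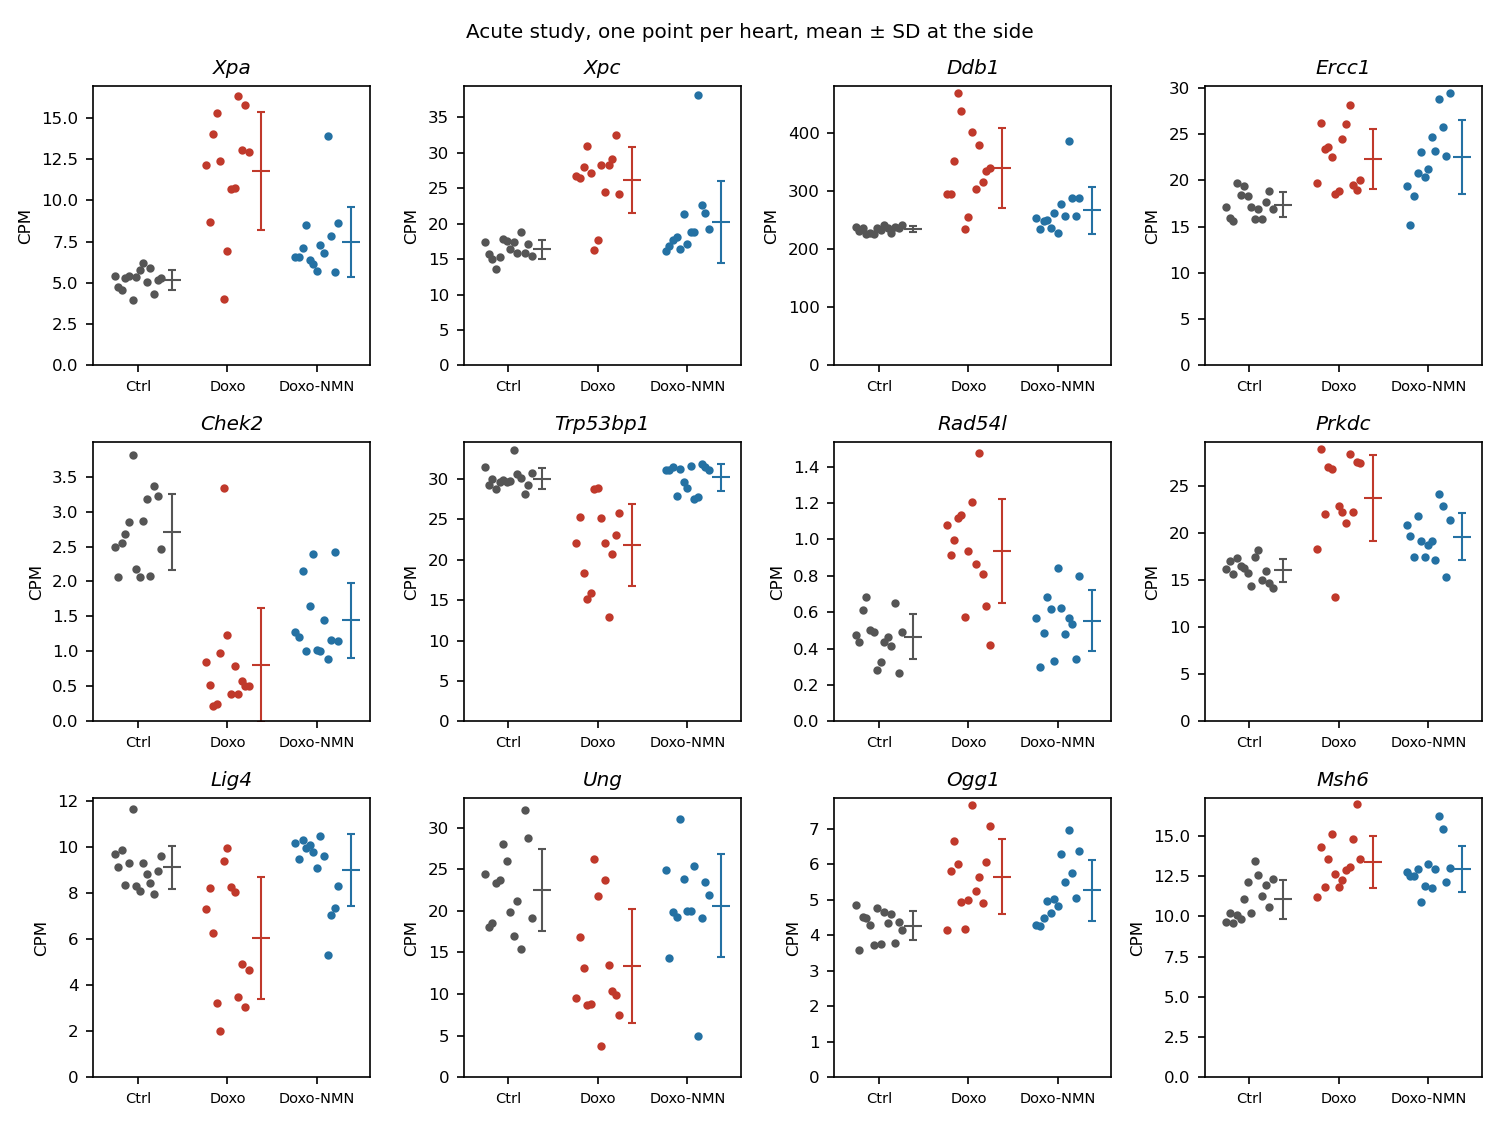
CPM of 12 members in every acute heart (one point per heart, mean and SD beside the points, Ctrl n = 14, Doxo n = 13, Doxo-NMN n = 13). The single high Doxo point in the Chek2 panel, at 3.34 CPM, and the single low one in the Xpa panel, at 4.01 CPM, are the library labelled Doxo replicate 6.

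Of the 14 members that passed in Doxo-NMN vs. Ctrl, where 26% of all genes and 33.3% of the members did, 6 are among the 8 genes of nucleotide excision repair (Xpa, Xpc, Ddb2, Ercc1, Ercc3 and Ercc5), 3 among the 8 of base excision repair (Ogg1, Mutyh and Xrcc1) and 2 among the 6 of end joining (Prkdc and Xrcc5). Differences between the pathways were not tested. The others were Msh6, Palb2 and Chek2. With NMN against Doxo alone, 53% of all genes passed, 25.7% higher and 27.4% lower. There, 4 of 8 nucleotide excision repair genes were lower and 1 higher. Of the others, 2 of 5 signalling genes, 2 of 8 base excision genes and 2 of 3 translesion and nucleotide supply genes were higher. Recombination and end joining went both ways. Rad54l and Rad52 of the former and Prkdc and Xrcc5 of the latter were lower, while Nbn, Lig4 and Xrcc6 were higher. No member had Doxo-NMN hearts in a range apart from Doxo or from Ctrl hearts, as 0.0562% and 1.43% of all genes did.

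In the acute study, Doxo hearts were more spread than Ctrl hearts in most members. The spread of other genes was not measured, so whether this is particular to the members was not tested. The coefficient of variation over hearts had a median over the members of 10.5% in Ctrl, 20.8% in Doxo and 15.1% in Doxo-NMN hearts, and it exceeded the Ctrl value in 41 and 33 of the 42 members. In Doxo hearts it ran from 7.28% for Rrm2b to 100% for Chek2. Without the library labelled Doxo replicate 6 the median was 20.9%, 38 members exceeded their Ctrl value and Chek2 was at 50.7%. Counted per heart, members outside the range of the Ctrl hearts numbered 6, 25 and 29 (lowest, median and highest) in Doxo and 10, 14 and 25 in Doxo-NMN hearts, against 1, 5 and 12 for each Ctrl heart set against the other Ctrl hearts. The 6 belonged to the library labelled Doxo replicate 6, and the other Doxo hearts had 11 to 29. The 25 among Doxo-NMN hearts belonged to replicate 10, in which Chek2 was 0.887 CPM and Ung 4.97 CPM. Such counts per heart were not made for other genes, so whether they are particular to the members was not tested. In the chronic study the median coefficient of variation was 17.4% in Ctrl, 16.9% in Doxo and 13.8% in Doxo-NMN hearts. It exceeded the Ctrl value in 13 of the 42 members with Doxo and in 13 with both agents.

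**Figure D3:**
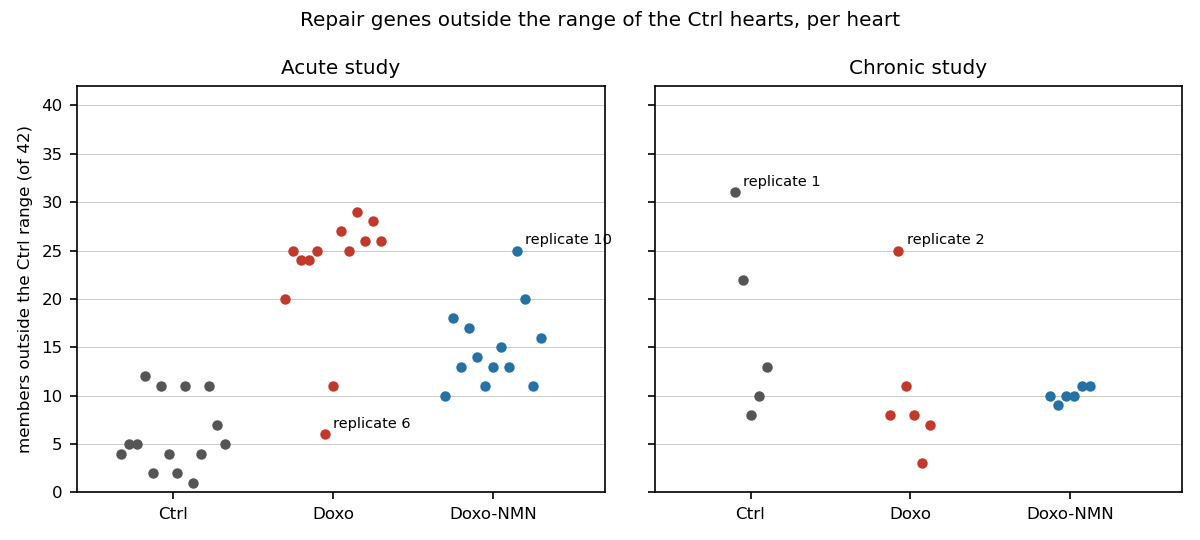
Number of the 42 members outside the range of the Ctrl hearts in each heart (y axis, one point per heart, Ctrl hearts set against the other Ctrl hearts). Acute Doxo hearts have a median of 25, Doxo-NMN hearts 14, and the labelled points are the hearts that stood apart. The same count was not made for other genes.

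Some marker genes of other cells differed between the acute groups. In Doxo vs. Ctrl 68.1% of all genes passed, 34.8% higher and 33.3% lower, and the counts below are read against these shares. Of 15 proliferation markers 13 were tested, and 9 fell and 1 rose with Doxo, their summed level being 27 to 39.3 CPM in Ctrl, 16.7 to 40.7 in Doxo and 18.7 to 27.9 in Doxo-NMN hearts. All 5 red cell markers fell, with sums of 380 to 3770 CPM in Ctrl and 1.17 to 295 CPM in Doxo and 0.209 to 2.701 CPM in Doxo-NMN hearts. Of 6 cardiomyocyte markers 4 fell and 1 rose. Their sum was 54213 to 68086 CPM (median 61074) in Ctrl, 26682 to 70700 (50289) in Doxo and 34434 to 77557 (66948) in Doxo-NMN hearts. These levels fit tissue labelled as heart. In the endothelial list 2 of 5 passed, in the fibroblast and macrophage lists 3 of 5 each, in the atrial list 1 of 5 and in the lymphocyte list the 1 that could be tested, and no marker was at 0 in all hearts. The endothelial, fibroblast, macrophage and atrial counts do not exceed the share of all genes. The part of these cells in the changes of repair genes was not tested. Of 10 p53 targets outside repair, 5 rose and 1 fell (34.8% and 33.3% of all genes). Among these were the cell cycle inhibitor Cdkn1a at 1.54, Trp53inp1 at 2.51 and Ccng1 at −0.97, while Mdm2, the ligase for p53, had 0.07. The 10 together summed to 959 to 1266 CPM (median 1192) in Ctrl, 757 to 1193 (890) in Doxo and 679 to 1358 (1012) in Doxo-NMN hearts.

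Atrial tissue also differed between acute hearts. Myl4, an atrial myosin light chain, was above 100 CPM in 8 of 14 Ctrl, 5 of 13 Doxo and 4 of 13 Doxo-NMN hearts. Among hearts below that limit 23 members passed in Doxo vs. Ctrl (54.8%, as of all genes in that fit), and among hearts above it 25 (59.5%, against 60.1%). Doxo vs. Ctrl values within the low and the high hearts were 1.18 and 1.22 for Xpa, −1.73 and −1.85 for Chek2 and 1.09 and 0.90 for Rad54l, and all passed. Fancd2 passed in neither (adjusted p = 0.095 and 0.111). Between Doxo-NMN and Doxo hearts, 9 and 10 members passed (21.4% and 23.8%, against 39.1% and 39.3% of all genes), with Xpa at −0.55 and −0.84 in both. Chek2 at 0.72 did not pass among the low hearts (adjusted p = 0.135) and passed at 0.96 among the high ones (adjusted p = 0.0265). In Doxo-NMN vs. Ctrl 2 members passed in each subset (4.76%, against 7.88% and 9.12% of all genes), Ddb2 at 0.58 and Ercc1 at 0.39 among the low hearts and Brca2 at 0.45 and Palb2 at 0.75 among the high ones, each with fewer hearts than the whole comparison.

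The members are part of larger pathways, for which 104 further repair genes were listed and 98 tested in the acute study. In Doxo vs. Ctrl 65 of these passed (66.3%, against 68.1% of all genes), 38 higher and 27 lower, and 25 reached 1.5-fold (25.5%, against 30.1%), shares near those of all genes. In nucleotide excision repair 13 of 16 passed, 9 higher and 4 lower, in damage signalling 7 of 18 rose and 3 fell, in homologous recombination 5 of 16 rose and 5 fell, and in crosslink repair 2 of 11 rose and 5 fell. In Doxo-NMN vs. Doxo 59 passed (60.2%, against 53%), 29 higher and 30 lower, and in Doxo-NMN vs. Ctrl 24 passed (24.5%, against 26%), 20 higher and 4 lower.

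In each pathway, 1 gene of either direction is named, the one with the smallest adjusted p against Ctrl. Uvssa, which recruits TFIIH to stalled polymerases, measured 9.24, 10.9 and 12.2 CPM in Ctrl, 9.74, 30.4 and 41.2 in Doxo and 12.3, 15.8 and 27.7 with NMN. It rose by 1.45 (adjusted p = 4.49e-11), was −0.82 lower with NMN and still 0.62 above Ctrl. Its partner in the list, the TFIIH subunit Gtf2h3, fell by −0.67 and was 0.48 higher with NMN. Rad18, which marks PCNA with ubiquitin so that translesion polymerases can act, measured 0.783, 1.15 and 2.01 CPM in Ctrl, 1.78, 4.16 and 8.29 in Doxo and 1.04, 1.39 and 2.92 in Doxo-NMN hearts. It rose by 1.84 (adjusted p = 5.07e-10) and was lower by −1.51 with NMN (adjusted p = 5.28e-07), so the helper of translesion synthesis rose while the polymerases Polk and Polh fell. Dut, which removes dUTP from the nucleotide pool and so works upstream of Ung, fell by −0.73, as Ung did. Neil2, a glycosylase for oxidized bases, rose by 1.99 (adjusted p = 5.81e-09), and Parp1, the sensor of single-strand breaks that consumes NAD+, fell by −0.51 and was 0.45 higher with NMN (adjusted p = 3.67e-06).

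End joining had Paxx, a partner of Ku, at 1.38 and the polymerase Poll at −0.26. Subunits of RPA, the protein that coats single-stranded DNA, went both ways, as those of Ku did, Rpa2 at 0.67 and Rpa3 at −1.07. In signalling, Atrip, the partner of ATR, rose by 0.49 and Rad9a, of the clamp that activates ATR, fell by −0.71. Pcna, the sliding clamp, rose by 0.56 and the mismatch repair gene Mlh3 fell by −0.32. In crosslink repair the translocase Fancm rose by 0.31 and the nuclease Fan1 fell by −0.80, and in direct reversal Alkbh3, which removes alkyl groups, rose by 0.57. In Doxo-NMN vs. Doxo these genes also passed, with values of −0.60 for Paxx, 0.42 for Poll, −0.32 for Rpa2, 0.72 for Rpa3, −0.27 for Atrip, 0.55 for Rad9a, −0.40 for Pcna, 0.42 for Mlh3, −0.23 for Fancm, 0.54 for Fan1 and −0.24 for Alkbh3. Both comparisons use the same Doxo hearts, so these values are not independent of the first.

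The chronic study asks whether repair genes differed on day 60. Doxo vs. Ctrl had 0 of 42 members past the edgeR test, against 0.0602% of all genes tested. Doxo-NMN vs. Doxo also had 0 (0%), as had Doxo-NMN vs. Ctrl (0.0401%). At an unadjusted p under 0.05 there were 3, 0 and 2 members in these comparisons, while 7.85%, 2.95% and 4.73% of all genes met that limit. Ranges that did not overlap occurred for 0, 0 and 1 members, and for 0.922%, 0.16% and 0.775% of all genes. DESeq2 also called 0 members in each comparison, and limma voom with sample weights called 1, Brca1, in Doxo vs. Ctrl. Of 97 further repair genes tested 0 passed the edgeR test in any of the 3 comparisons, with 9, 2 and 3 at an unadjusted p under 0.05, 0 by DESeq2 in each and 1, 0 and 1 by limma voom. Without Ctrl replicate 1 and Doxo replicate 2, a choice made after seeing the data, 0 members passed in each as well.

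Brca1 came nearest to the threshold. Brca1, the scaffold that steers breaks toward recombination, measured 0.218, 0.194, 0.199, 0.0532 and 0.283 CPM in the 5 Ctrl hearts, 0.220, 0.606 and 0.834 CPM (lowest, median and highest) in Doxo hearts and 0.324, 0.369 and 0.513 CPM in Doxo-NMN hearts. Doxo hearts reached down into the Ctrl range, while all Doxo-NMN hearts lay above it, and Brca1 is the member without overlap counted above. Its log2 difference from Ctrl was 1.60 with Doxo (SE 0.374, 95% interval 0.87 to 2.33, adjusted p = 0.239 by edgeR and 0.0477 by limma voom with a value of 1.69) and 0.996 with both agents (adjusted p = 0.999). These rest on 1 to 19 counts per heart. Brca1 (ENSMUSG00000017146) lies on the minus strand of chromosome 11 from 101488764 to 101551955 in GRCm38.

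The genes that led in the acute study gave wide intervals in the chronic one. Chek2 measured 8.50, 6, 6.81, 6.06 and 4.47 CPM in Ctrl hearts, 1.49, 4.62 and 6.30 CPM in Doxo hearts and 3.19, 3.98 and 6.47 CPM in Doxo-NMN hearts. No treated heart lay above the Ctrl range, and 2 of 6 Doxo and 5 of 6 Doxo-NMN hearts lay below it. Chek2 differed from Ctrl by −0.50 with Doxo (adjusted p = 0.66) and −0.21 without Ctrl replicate 1 and Doxo replicate 2, the latter being the heart at 1.49 CPM. Xpa measured 6.81, 5.37, 6.71, 8.24 and 6.96 CPM in Ctrl hearts, 5.90, 7.54 and 13.4 CPM in Doxo hearts and 6.66, 7.15 and 7.93 CPM in Doxo-NMN hearts, the 13.4 again from Doxo replicate 2. Xpa differed from Ctrl by 0.32 (95% interval −0.04 to 0.68, adjusted p = 0.68), and 0.15 without the hearts that stood apart. Rad54l had −0.53, Xrcc4 had 0.31 and Pms2 had 0.32, and none of them passed.

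**Figure D4:**
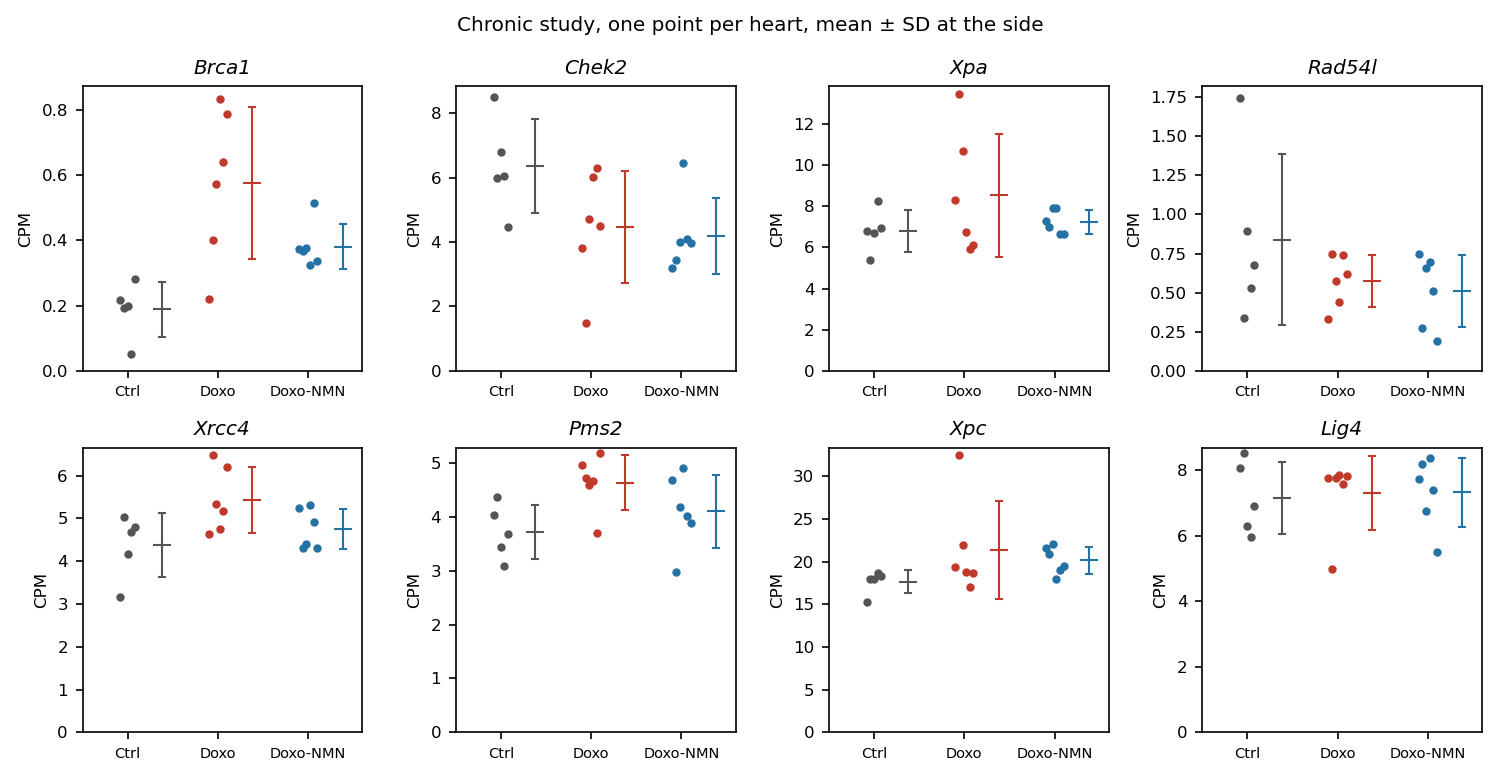
CPM of 8 members in every chronic heart (one point per heart, mean and SD beside the points, Ctrl n = 5, Doxo n = 6, Doxo-NMN n = 6). Brca1 is highest in Doxo hearts, up to 0.834 CPM, and the extreme Doxo points in the Chek2, Xpa, Xpc and Lig4 panels are replicate 2.

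Whether the effect of Doxo differed between the studies was tested as an interaction over 38 hearts, Ctrl and Doxo of each. For 6 of 42 members the difference passed (14.3%, against 19.3% of 14965 genes), 3 with a more positive and 3 with a more negative log2 fold change in the acute study. More positive were Rad54l by 1.53 (adjusted p = 0.00781), Xpa by 0.85 (adjusted p = 0.0251) and Ercc5 by 0.39 (adjusted p = 0.0114). Chronic Ctrl hearts held 7 to 32 counts of Rad54l, at 0.339, 0.679 and 1.74 CPM (lowest, median and highest). Its coefficient of variation there, 65.1%, was the highest of any member. More negative were Brca1 by −1.99 (adjusted p = 0.00735), Trp53bp1 by −0.50 (adjusted p = 0.0235) and Lig3 by −0.50 (adjusted p = 0.0477), the last lost in 30 of 38 fits that left out 1 heart. By edgeR, Brca1 passed Doxo vs. Ctrl in neither study alone. For Chek2 the difference was −1.22 and did not pass (adjusted p = 0.0696), and for Xpc it was 0.40 (adjusted p = 0.0796). Dosing, time after Doxo, age, supplier and sequencing site differed between the studies together and cannot be told apart.

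Hearts that stood apart moved this comparison for members and for genes at large. Without the library labelled Doxo replicate 6, 9 members passed (21.4%, against 30.8% of all genes), with Chek2 at −1.65 (adjusted p = 0.000918), Xpc at 0.44 (adjusted p = 0.0221) and Prkdc at 0.35 (adjusted p = 0.0464) among them. Without that library and chronic Ctrl replicate 1 and Doxo replicate 2, a choice made after seeing the data, 14 passed (33.3%, against 34.2% of all genes), 8 more positive and 6 more negative. The members' count thus grew along with that of all genes. Added to the first 6 were then Xpc at 0.64, Ddb1 at 0.60, Xrcc5 at 0.41, Prkdc at 0.37 and Ercc3 at 0.33 on the positive side and Chek2 at −1.96, Lig4 at −0.82 and Mgmt at −0.57 on the negative side.

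**Figure D5:**
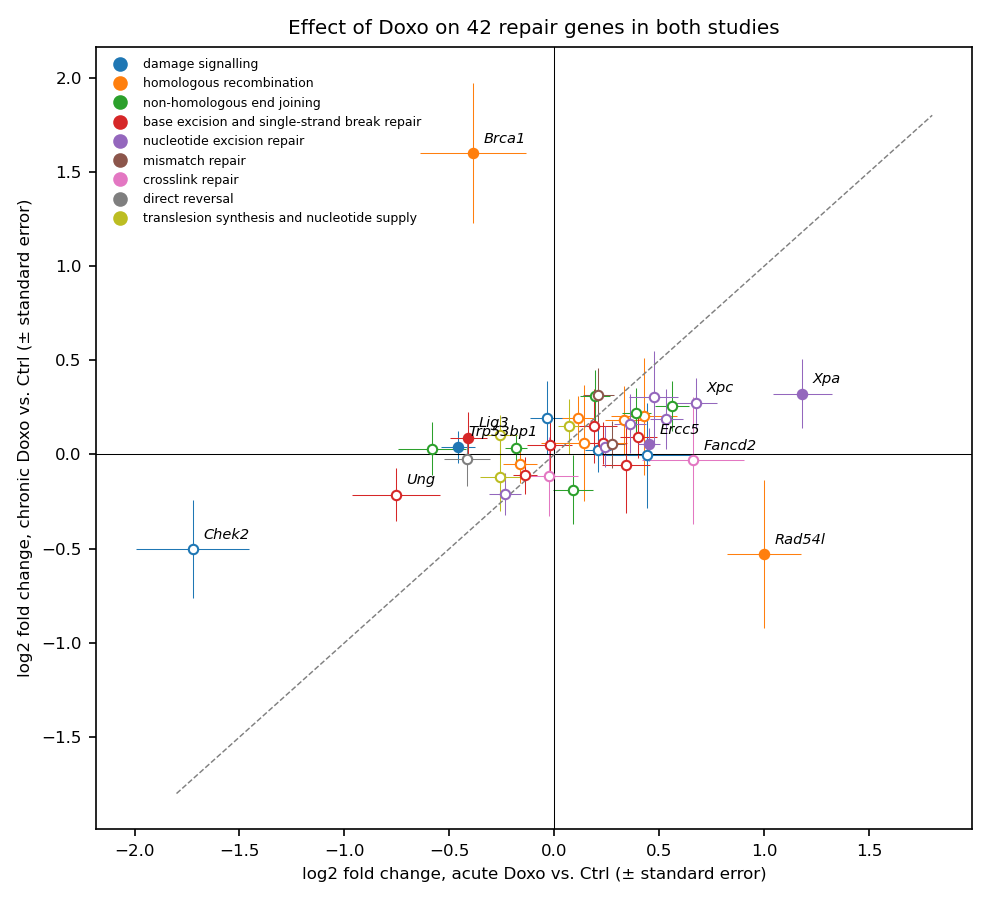
Log2 fold changes of Doxo vs. Ctrl for the 42 members in the acute (x axis) and the chronic study (y axis), with standard errors and colours by pathway. Xpa and Rad54l lie at 1.18 and 0.999 on the acute axis but at 0.32 and −0.53 on the chronic axis, and Brca1 lies at −0.39 and 1.60.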

How the data were processed

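Heart RNA was measured by poly(A) RNA sequencing in 40 acute and 17 chronic hearts. The deposited values are raw counts per gene that the authors made with STAR and featureCounts (versions 2.7.3a and 2.0.0 per the submitters' processing notes) on mm10, without normalization. The gene annotation and strand setting are not given in the sources used here. Of counts from 1 to 20, a median of 73.6% per acute heart were even, against 40.3% in chronic hearts. The sources used here describe single-end reads, and the reason was not tested. Acute counts divided by 2 were tried as an alternative.

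Hearts were grouped by their labels. Totals ranged from 17769886 to 52102850 counts, so 3 counts, taken as the floor, equal 0.0576 to 0.169 CPM. The 95% intervals, 1.96 SE to either side, are for the estimated log2 fold change and not for the range of single hearts. No columns were left out, and no libraries were found to be repeats.

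Counts were filtered with filterByExpr by group, scaled with TMM and tested in R 4.3.3 with edgeR 4.0.16 (quasi-likelihood F-test, 3 groups of a study in 1 fit, p adjusted over all genes tested). Standard errors are the log2 fold change divided by the square root of F. The interaction fit used 38 hearts, Ctrl and Doxo of either study, and genes with a symbol in both tables. The fits were tested on simulated data with known changes. CPM use TMM library sizes, and RPKM use exon lengths of GENCODE for GRCm38, which also gave positions and overlaps. Promoters are from RefSeq. Python 3.11.15 with pandas 2.3.3 and matplotlib 3.10.9 was used for tables and figures.

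Alternatives were DESeq2 1.42.0, limma 3.58.1 (voom with sample weights), no low-count filter, RLE factors, only the groups compared, the replicate number as a block, hearts of low or high Myl4 (limit 100 CPM), Myl4 as a covariate, acute counts divided by 2, other fold limits and leaving out each heart. The members, pathway lists, marker lists and tests were chosen with earlier results of these data known. All 42 members are named, and of the other repair genes, in each list, the gene of each direction with the smallest adjusted p in acute Doxo vs. Ctrl.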

Additional observations from a re-analysis of the deposited data

Results flagged for a closer look

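In groups of up to 10 hearts, the highest or lowest heart was compared with the rest of its group for each member, and 17 of 126 pairs of a member and a group had a heart farther away than the 95% limit of Dixon's test, where about 5% would by chance. All lie in the chronic study, since acute groups are larger. Chronic Ctrl replicate 1 was high in Dclre1c at 7.03 CPM and Rad52 at 9.80 CPM, and low in Ung at 22.3 CPM, Xpc at 15.3 CPM and Xrcc6 at 19.1 CPM, and Ctrl replicate 3 was high in Rad50 at 12.4 CPM. Chronic Doxo replicate 2 was high in Ercc1 at 37.9 CPM, Prkdc at 14.8 CPM, Xpc at 32.5 CPM, Xrcc1 at 32.9 CPM and Xrcc5 at 30.7 CPM, and low in Lig4 at 5 CPM and Mgmt at 5.86 CPM. In acute Doxo vs. Ctrl the first 5 of these 7 genes rose and the last pair fell. Chronic Doxo-NMN replicate 5 was high in Brca1 at 0.513 CPM, replicate 4 was high in Chek2 at 6.47 CPM and Polk at 6.05 CPM, and replicate 6 was low in Ercc5 at 16.1 CPM.

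The effect of Doxo differed between the acute and the chronic study, by the edgeR interaction test, for 6 members (14.3%, against 19.3% of all genes tested). The acute minus chronic log2 fold changes were 1.53 for Rad54l, 0.85 for Xpa, 0.39 for Ercc5, −0.50 for Trp53bp1, −0.50 for Lig3 and −1.99 for Brca1. The call for Lig3 was lost in most fits that left out 1 heart, and Brca1 rests on 1 to 19 counts per chronic heart. The studies differ in several ways at once, and which of them goes with these differences cannot be told apart.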

How the results depend on the processing

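No member reversed in any setting in which it had passed. In the acute study, DESeq2, RLE factors, no low-count filter, counts divided by 2 and Myl4 as a covariate left every count of members within 1.5 times its value. With a limit of a 25% and a 2-fold change in place of 1.5-fold, 20 and 2 members were called in Doxo vs. Ctrl (6 at 1.5-fold), 10 and 0 in Doxo-NMN vs. Doxo (4) and 6 and 0 in Doxo-NMN vs. Ctrl (1). Among hearts of low Myl4, 9 members passed in Doxo-NMN vs. Doxo, 1 of them at 1.5-fold, and in Doxo-NMN vs. Ctrl 2 members, 0 at 1.5-fold, and 6 other repair genes. Among hearts of high Myl4 these were 10 members, and 2 members and 8 other repair genes. These subsets hold fewer hearts, and high Myl4 hearts do not occur in the chronic study, so that fit was not run there. With limma voom, 2 members reached 1.5-fold in Doxo-NMN vs. Ctrl and 42 other repair genes passed (24 by edgeR, while all genes passing went from 26% to 41.4%), 1 member and 1 other repair gene passed in chronic Doxo vs. Ctrl, 1 other repair gene in chronic Doxo-NMN vs. Ctrl, and 18 members in the interaction (42.9%, against 46.7% of all genes), and the cause was not tested. Fitting only the groups compared gave 40 other repair genes in Doxo-NMN vs. Ctrl (39.7% of all genes passed). With the hearts that stood apart left out, a choice made after seeing the data, 14 members passed the interaction (33.3%, against 34.2% of all genes).

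Leaving out each heart in turn gave 30 to 33 members in Doxo vs. Ctrl, 15 to 19 in Doxo-NMN vs. Doxo and 12 to 15 in Doxo-NMN vs. Ctrl, with 5 to 8, 3 to 5 and 1 to 2 at 1.5-fold. Other repair genes numbered 63 to 67, 55 to 61 and 20 to 27, all chronic counts stayed at 0, and the interaction gave 4 to 9 members, 4 without chronic Ctrl replicate 4 and 9 without the library labelled Doxo replicate 6.

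Replicate numbers are shared by the groups but do not pair the hearts: of 13 acute pairs in each comparison 1 correlated best with its own number, and of 5 or 6 chronic pairs 0 or 1. With the replicate number as a block, 30 members passed in acute Doxo vs. Ctrl, 17 in Doxo-NMN vs. Doxo and 13 in Doxo-NMN vs. Ctrl, with 7, 5 and 1 at 1.5-fold and 65, 58 and 23 other repair genes, and 0 passed in each chronic comparison.

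Depth limits the scarcest members most: Brca1, Fancd2 and Rad54l had 1 to 59 counts per heart, and in the chronic study the median of 17.4% variation between Ctrl hearts with 5 or 6 hearts a group leaves small changes unresolved.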
